A study of Homo sapiens with 36 samples.

Results

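The 10 genes described here are 3 tissue inhibitors of metalloproteinases (TIMP1, TIMP2 and TIMP3), 4 membrane-bound ADAM proteases (ADAM8, ADAM9, ADAM12 and ADAM17) and 3 secreted ADAMTS proteases (ADAMTS1, ADAMTS4 and ADAMTS15). They were chosen by name, with earlier results of these data known, from the 60725 Ensembl genes measured in 36 RNA-seq libraries of 18 groups with 2 libraries each. All 10 were found by symbol. Because of that choice the levels below are descriptive, and no p-value allows for it, although every p-value was adjusted over all genes tested.

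ER-Src cells are MCF-10A cells, a non-transformed human mammary epithelial line, that carry the v-Src oncoprotein fused to the ligand-binding domain of the estrogen receptor. Tamoxifen (TAM) activates the fusion and transforms the cells, and ethanol (ETH) is the vehicle. Cells of each state received a control siRNA (Ctrli) or siRNA pools against YAP (YAPi), TAZ (TAZi), STAT3 (STAT3i) or JUNB (JUNBi), which gave 10 groups. The 8 groups of MDA-MB-231, a triple-negative breast cancer line that carries no ER-Src, form 2 sets by their titles. Set 1 held Ctrli, YAPi, TAZi, YAPi_TAZi and an siRNA mix against the TEAD factors (TEADi), and set 2 held its own Ctrli with JUNBi and STAT3i. The treatment note in the labels, the same for every library, names the kinase inhibitor AZD0530 beside tamoxifen, all ER-Src groups were grown with EGF and hydrocortisone, and the methods name a shorter and a longer time in TAM without saying which one the RNA came from.

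TIMPs bind the active site of matrix metalloproteinases, and TIMP3, which is held in the extracellular matrix, also inhibits ADAM17 and the aggrecanases of the ADAMTS family. ADAM proteases cut membrane proteins close to the cell surface, and ADAM17 in this way releases EGF-receptor ligands, TNF and cytokine receptors. ADAMTS proteases are secreted and cut matrix proteoglycans such as aggrecan and versican. TIMP1 is a classical target of AP-1 and STAT3 signalling, the arms of the network that the knockdowns address.

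TIMP1 (ENSG00000102265.11) lies on the plus strand at chrX:47582408-47586789 of GRCh38, TIMP2 on the minus strand at chr17:78852977-78925387 and TIMP3 on the plus strand at chr22:32801705-32863041. TIMP1 lies within SYN1 and TIMP3 within SYN3, each on the opposite strand, and the counting is not stated to use strand. Only whole gene spans were compared, so whether exons overlap and reads of these pairs mix was not tested. ADAM8 (chr10:133262420-133276868, minus strand) overlaps no other annotated gene. ADAM17 (chr2:9488486-9556732, minus strand) overlaps IAH1 on the other strand, and ADAMTS4 lies at chr1:161184302-161199054 on the minus strand. Overlaps are given for some of the 10 genes only.

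The bases just before the transcription starts of TIMP1, TIMP3 and ADAM8 are shown because these genes moved in different directions under TAM and all responded to STAT3i and JUNBi. They are RefSeq promoter sequences of GRCh38.p14, cut at the annotated start and written from 5′ to 3′ on the strand of the gene. They cover chrX:47582186-47582407 for TIMP1, chr22:32801455-32801704 for TIMP3 and chr10:133276869-133277118 for ADAM8.
TIMP1: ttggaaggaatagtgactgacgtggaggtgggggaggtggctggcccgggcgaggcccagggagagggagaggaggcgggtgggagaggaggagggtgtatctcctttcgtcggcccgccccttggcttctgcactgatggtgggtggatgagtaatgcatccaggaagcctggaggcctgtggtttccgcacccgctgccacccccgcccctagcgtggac
TIMP3: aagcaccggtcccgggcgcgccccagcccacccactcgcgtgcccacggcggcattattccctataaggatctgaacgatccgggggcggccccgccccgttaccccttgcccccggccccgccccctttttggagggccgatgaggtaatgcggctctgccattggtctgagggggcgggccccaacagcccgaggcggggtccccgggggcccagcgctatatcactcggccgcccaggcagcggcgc
ADAM8: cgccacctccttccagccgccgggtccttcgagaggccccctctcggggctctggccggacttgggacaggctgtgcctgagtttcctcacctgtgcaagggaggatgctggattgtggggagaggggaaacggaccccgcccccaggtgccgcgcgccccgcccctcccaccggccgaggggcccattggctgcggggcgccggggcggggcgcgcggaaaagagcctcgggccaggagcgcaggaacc
Capitals would mark exact matches on either strand to the AP-1 motif TGANTCA, the STAT motif TTCNNNGAA or the TEAD motif GGAATG. None of the 3 windows holds an exact match, and near matches, such as tgagtaa in the TIMP1 window, were not sought. The TIMP1 window has 222 bases and the other 2 have 250. Over all 27305 promoters with a 250-base window, 6.60% hold the AP-1 letters, 6.78% the STAT letters and 11.9% the TEAD letters. The windows are rich in G and C, at 65.8% for TIMP1, 72.4% for TIMP3 and 73.6% for ADAM8, against a median of 58% over all promoters.

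Library size and composition limit some comparisons. Totals in ER-Src were 6419720 to 19161700 expected counts (RSEM's estimate of reads per gene), in the set 1 controls 13456784 and 13534560, in the 8 set 1 knockdown libraries 1411304 to 2784605 and in set 2 7290499 to 18076158. A group of RNAs without poly(A) tails took 8.71% to 11.8% of counts in the set 1 knockdowns but at most 0.00407% in the set 1 controls, so in set 1 the knockdowns and the kind of library cannot be told apart. The deposited gene length minus effective length, which in RSEM follows the length of the reads or fragments, was 75 bases in the set 1 controls, 48 in every first set 1 knockdown library and 74.56 to 74.57 in every second one. In ER-Src it was 49 in every STAT3i and JUNBi library and 49.47 to 49.49 in the Ctrli, YAPi and TAZi libraries. So in ER-Src this trait cannot be told apart from the STAT3i and JUNBi knockdowns. All 8 markers of basal mammary epithelium were above 1 TPM in every ER-Src library, with KRT5 at 1012 to 2622 TPM. KRT5 was at 0 in the MDA-MB-231 controls and in set 2, but reached 11.5 TPM in set 1 knockdowns. Of 7 fibroblast markers 1 or 2 reached 1 TPM in each ER-Src library, with DCN at 29.98 to 259 TPM and LUM at 0.52 to 4.46 TPM. Their summed level was 59.0 to 68.8 TPM in Ctrli, 148 to 262 in YAPi, 139 to 215 in TAZi, 30.9 to 74.1 in STAT3i and 36.6 to 50.9 in JUNBi, and their part in the results was not tested. The targeted mRNAs were at 15.1% to 49.9% of Ctrli in ER-Src, with JUNB under ETH the least reduced. Under TAM, JUNB was also low in STAT3i, at 14.44 to 14.88 TPM. It stood at 54.35 to 71.05 TPM in Ctrli and 16.35 to 18.86 TPM in JUNBi. STAT3 under TAM was not lower in JUNBi, at 50.7 to 57.81 TPM against 33.8 to 44.15 TPM in Ctrli. The part of JUNB in the STAT3i results was not tested.

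In ER-Src cells with control siRNA, TAM was accompanied by more TIMP1, TIMP2, ADAM8 and ADAMTS4 mRNA and by less TIMP3 mRNA. A gene is called here when DESeq2, run on rounded expected counts, gave an adjusted p under 0.01. Of the 10 genes 5 were called, beside 6.21% of all genes tested, and since the genes were chosen with such results in view nothing is read from that contrast. Under the other siRNAs TAM against ETH called 3 of the 10 in TAZi beside 7.13%, 3 in JUNBi beside 2.13%, 2 in YAPi beside 4.5% and 0 in STAT3i beside 0.793%. In STAT3i 3 of the 10 had an unadjusted p under 0.05, and edgeR called TIMP2 and ADAMTS4. In Ctrli the median log2 fold change of the 10 genes was 0.49, and that of all genes tested was -0.01.

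**Figure D1:**
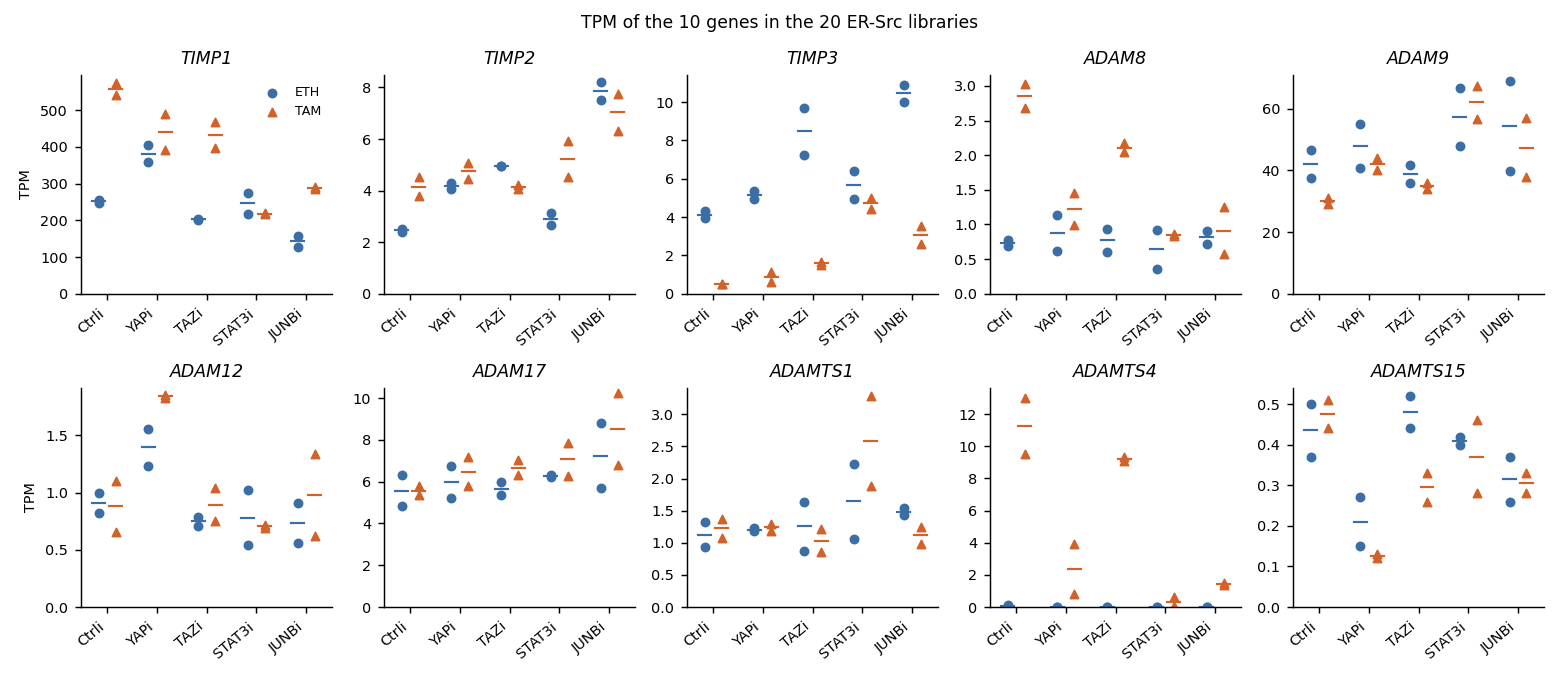
TPM (RSEM's length-corrected level, scaled to 1 total in every library) of the 10 genes in the 20 ER-Src libraries, with 1 panel per gene, siRNA on the horizontal axis and a linear vertical axis from 0. Circles are ETH libraries, triangles TAM libraries and dashes means of 2; TIMP3 falls from ETH to TAM in all siRNAs except STAT3i, where the means are 5.67 and 4.73 TPM, and ADAMTS4 is near 0 in every ETH library.

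TIMP1, a broad inhibitor of matrix metalloproteinases, was by TPM the most abundant of the 10 genes in every group. In Ctrli it stood at 256 and 248 TPM under ETH and at 575 and 543 TPM under TAM. Both TAM libraries lay above both ETH libraries, and the log2 fold change was 1.15 (SE 0.11, DESeq2 adjusted p 6.29e-25). The rise was of the same order in TAZi, from 205 and 200.2 TPM to 468 and 399 TPM (log2 1.27, SE 0.12), and in JUNBi, from 129 and 158 TPM to 292 and 285 TPM (log2 1.12, SE 0.28). The call in JUNBi was lost by edgeR's quasi-likelihood test and when either TAM library was left out (adjusted p up to 0.982).

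STAT3i libraries held 218 and 275 TPM of TIMP1 under ETH and 217 and 219 TPM under TAM, so the groups overlapped, and TAM against ETH gave -0.14 on the log2 scale (SE 0.18, DESeq2 adjusted p 0.9999). In YAPi the values were 358 and 407 TPM under ETH and 489 and 393 TPM under TAM (log2 0.38, SE 0.14, DESeq2 adjusted p 0.101). The knockdown effect in TAM minus that in ETH was -1.28 for STAT3i (SE 0.19, DESeq2 adjusted p 4.65e-09), beside 1.43% of genes called in that interaction, and -0.76 for YAPi (SE 0.18, DESeq2 adjusted p 0.00647), beside 0.498%. For TAZi and JUNBi the same difference was 0.12 (SE 0.16) and -0.02 (SE 0.31), and neither was called. No member was called in the TAZi interaction, beside 1.6%, where 1 of the 10 had an unadjusted p under 0.05 and edgeR called 1. The STAT3i difference was called without any 1 of its 8 libraries, whereas the YAPi difference was called without 1 of them only, the first YAPi library under ETH (lowest magnitude without a library -0.54, adjusted p up to 0.456).

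**Figure D2:**
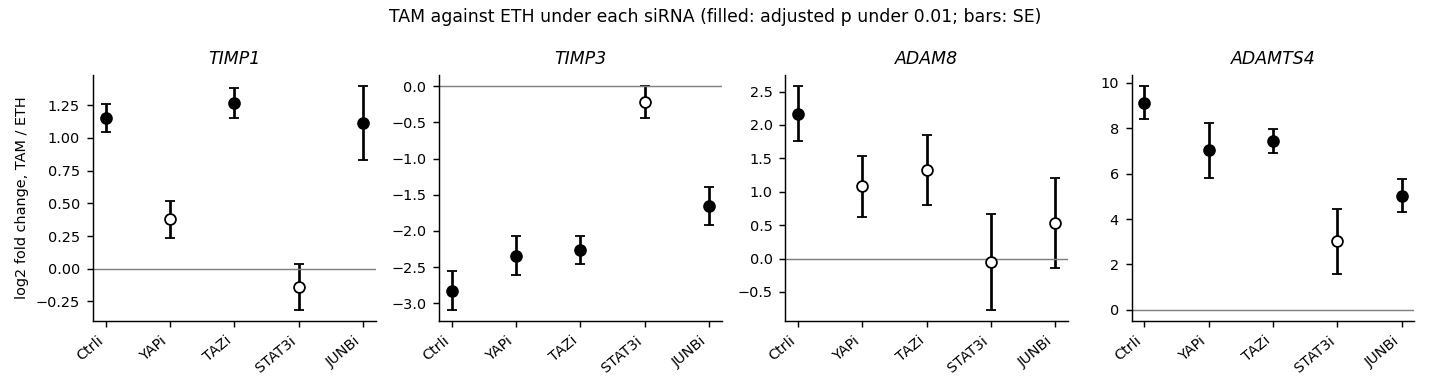
DESeq2 log2 fold change of TAM against ETH under each siRNA for TIMP1, TIMP3, ADAM8 and ADAMTS4, with SE bars, 2 libraries per group and a separate vertical scale per panel. Filled points are called at adjusted p under 0.01; under STAT3i the values are -0.14 for TIMP1, -0.22 for TIMP3, -0.05 for ADAM8 and 3.03 for ADAMTS4, and none is called.

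TIMP3 ran the other way. It stood at 4.34 and 3.93 TPM in Ctrli under ETH and at 0.53 and 0.49 TPM under TAM, the lowest mean of all 18 groups, with a log2 fold change of -2.82 (SE 0.27) given as a description because this fall was known when the gene was chosen. The fall was called in YAPi, from 4.95 and 5.37 TPM to 0.64 and 1.13 TPM (log2 -2.34, SE 0.27), in TAZi, from 7.26 and 9.72 TPM to 1.52 and 1.67 TPM (log2 -2.26, SE 0.20), and in JUNBi, from 10.9 and 10.0 TPM to 3.54 and 2.59 TPM (log2 -1.65, SE 0.26). The YAPi call was lost without the second ETH library (adjusted p 0.0941) and the JUNBi call without the second TAM library (adjusted p 0.0178). In STAT3i the ETH libraries held 4.93 and 6.41 TPM and the TAM libraries 4.45 and 5.00 TPM, overlapping, with a log2 fold change of -0.22 (SE 0.23, DESeq2 adjusted p 0.9999).

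Against Ctrli in TAM, TIMP3 rose in STAT3i by 2.90 on the log2 scale (SE 0.27, DESeq2 adjusted p 1.78e-25), in JUNBi by 2.35 (SE 0.29, adjusted p 2.94e-13) and in TAZi by 1.49 (SE 0.33, adjusted p 0.000332). The TAZi call was lost without either TAZi library or the second control (log2 1.47 to 1.52), and DESeq2 gave no adjusted p without the first control. In YAPi the value was 0.80 (SE 0.44), not called by DESeq2 (adjusted p 0.236) but called by edgeR (adjusted p 0.00223). TIMP3 also rose under ETH, in TAZi by 0.90 (SE 0.18) and in JUNBi by 1.14 (SE 0.25), and STAT3i gave 0.26 (SE 0.22) there. The ETH calls were lost when either control library was left out, and in TAZi also without its second library (adjusted p up to 0.12 in TAZi and 0.605 in JUNBi). The STAT3i effect in TAM minus that in ETH was 2.62 (SE 0.32, DESeq2 adjusted p 1.56e-13), and the JUNBi difference of 1.19 (SE 0.32) was not called (adjusted p 0.0465; by edgeR 0.00734).

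TIMP2, which besides its inhibitory role assists the activation of pro-MMP2 by MMP14, was present at 2.39 to 8.21 TPM in ER-Src. In Ctrli it stood at 2.39 and 2.53 TPM under ETH and at 4.52 and 3.79 TPM under TAM (log2 0.92, SE 0.23, DESeq2 adjusted p 0.00174). This call was lost without any 1 of the 4 libraries (log2 0.75 to 1.08, adjusted p up to 0.422). The highest values were in JUNBi, 8.21 and 7.51 TPM under ETH and 7.76 and 6.30 TPM under TAM. Against Ctrli in ETH, TIMP2 rose in JUNBi by 1.43 (SE 0.29) and in TAZi by 0.84 (SE 0.23), and the TAZi call was lost without any 1 of the libraries and the JUNBi call without either control library (adjusted p up to 0.725 and 0.417). In TAZi, where TIMP2 and TIMP3 rose, the summed fibroblast markers were higher than in Ctrli as well. JUNBi, where both genes also rose under ETH, had a lower sum in that state. It held 48.8 and 36.6 TPM there, against 61.8 and 59.0 TPM in Ctrli. The part of these markers was not tested.

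ADAM8, a protease best known from leukocytes and from invasive tumors, was low in ER-Src. Ctrli held 0.69 and 0.77 TPM under ETH (31 and 34 counts) and 3.03 and 2.68 TPM under TAM (115 and 84 counts), with no overlap and a log2 fold change of 2.17 (SE 0.42, DESeq2 adjusted p 6.90e-06). This call held without the second ETH library and was lost without any other of the 4 (log2 2.02 to 2.33, adjusted p up to 0.039). Against Ctrli in TAM it fell in STAT3i by 2.58 on the log2 scale (SE 0.42, DESeq2 adjusted p 2.82e-08), to 0.86 and 0.84 TPM. In JUNBi it fell by 1.79 (SE 0.41, adjusted p 0.000376), to 0.57 and 1.25 TPM. In YAPi the value was -0.99, not called by DESeq2 (adjusted p 0.0301) but called by edgeR (adjusted p 0.000114). Over the 4 TAM knockdowns the values ran from -2.58 to -0.67. The JUNBi call was lost by edgeR and without the first JUNBi library or either control library (adjusted p up to 0.182). Of 5 leukocyte markers, 2 were above 1 TPM in each ER-Src library, at summed levels of 5.69 to 14.4 TPM under ETH and 8.01 to 27.7 TPM under TAM, and PTPRC, which defines leukocytes, was at 0 in every library.

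ADAM9 (chr8:38996754-39105445, plus strand), a widely expressed sheddase, stood at 29.2 to 69.1 TPM in ER-Src and was the most abundant of the proteases there. TAM against ETH was not called under any siRNA, with log2 values of -0.17 to 0.20. In TAM it rose against Ctrli, at 29.2 and 31.0 TPM, in STAT3i, at 67.4 and 56.7 TPM (log2 0.70, SE 0.13, DESeq2 adjusted p 2.04e-06), and in YAPi, where the lower of both libraries stood at 40.14 TPM (log2 0.46, SE 0.11, adjusted p 0.000356). The STAT3i call was lost without the first STAT3i or the first control library (adjusted p up to 0.0182) and the YAPi call without any 1 of the 4 libraries and in 1 fit over all groups (adjusted p up to 0.178).

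ADAM17, the sheddase that TIMP3 inhibits, stood at 4.84 to 10.2 TPM in ER-Src and was called in none of the 13 comparisons between ER-Src groups, nor in any of the 4 interactions. Its log2 values were 0.20 to 0.38 for TAM against ETH, 0.03 to 0.38 for the knockdowns in TAM and -0.10 to 0.16 in ETH. A gene not called at this size cannot be taken as unchanged.

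ADAM12 (chr10:126012381-126388477, minus strand), a sheddase found in mesenchymal and tumor cells, was called in ER-Src in YAPi against Ctrli and in no other comparison. By edgeR, and in 1 fit over all groups, it was called in 2 of the TAM knockdowns. Its DESeq2 log2 values over the TAM knockdowns ran from -1.04 to 1.02. It stood in YAPi at 1.83 and 1.85 TPM under TAM against 0.66 and 1.10 TPM in Ctrli (log2 1.02, SE 0.29, DESeq2 adjusted p 0.00567), and under ETH at 1.23 and 1.56 TPM against 0.82 and 1.00 TPM (log2 1.14, SE 0.32, adjusted p 0.00393). Both calls were lost without any 1 of their 4 libraries (log2 0.83 to 1.24 and 0.97 to 1.31), the ETH call also with offsets from effective length. The summed fibroblast markers were also higher in YAPi than in Ctrli in both states, and their part in this result was not tested. They were higher in TAZi too, where DESeq2 did not call ADAM12. ADAM12 was not tested for a difference between YAPi and the other knockdowns.

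ADAMTS4, an aggrecanase, showed the largest ratio of TAM to ETH of the 10 genes in Ctrli. The 10 ETH libraries held 1 to 6 counts each. In Ctrli the 2 ETH libraries held 2 counts each, at 0.15 and 0.01 TPM, and the TAM libraries held 1011 and 550 counts, at 12.98 and 9.49 TPM. Scaled by the DESeq2 size factors, the ratio of the pooled 1561 and 4 counts was 567, with an exact 95% interval of 221 to 2083 that covers counting error only.

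Under TAM the level of ADAMTS4 differed between siRNAs. TAZi held 9.06 and 9.31 TPM, YAPi 3.94 and 0.84, JUNBi 1.38 and 1.47 and STAT3i 0.60 and 0.07 TPM. The ratio of TAM to ETH counts was 171 in TAZi (interval 86.7 to 397), 130 in YAPi (55.2 to 401), 32.8 in JUNBi (16.4 to 76.7) and 8.30 in STAT3i (2.99 to 32.0). Ratios of mean TPM were 140 in Ctrli, 478 in YAPi, 367 in TAZi, 95 in JUNBi and 33.5 in STAT3i, so the order of the siRNAs by this ratio depended on the scale. Against Ctrli in TAM the log2 value was -6.31 in STAT3i (SE 0.93, DESeq2 adjusted p 6.63e-10) and -3.28 in JUNBi (SE 0.19, adjusted p 3.99e-60), both called without any 1 library. In YAPi it was -2.07 (SE 0.83) and was not called (adjusted p 0.071; called by edgeR), with 422 and 177 counts in the 2 YAPi libraries. In TAZi it was -0.39 (SE 0.15, adjusted p 0.133), which edgeR called.

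Interactions for ADAMTS4 were called in STAT3i, at -6.09 (SE 1.12, DESeq2 adjusted p 1.08e-05), and in JUNBi, at -4.08 (SE 0.95, adjusted p 0.00724), beside 0.288% of genes called in the JUNBi interaction. Both rest on the few ETH counts and were lost with offsets from effective length. The STAT3i call was also lost without the first STAT3i library under ETH (adjusted p 0.0451), and the JUNBi call without any 1 of 6 of the 8 libraries (adjusted p up to 0.282).

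ADAMTS1 (chr21:26835755-26845409, minus strand) and ADAMTS15 (chr11:130448645-130476645, plus strand) were low in ER-Src, at 0.86 to 3.29 and 0.12 to 0.52 TPM. ADAMTS1, an early-response protease with antiangiogenic repeats, was called in no ER-Src comparison; in STAT3i under TAM it stood at 1.89 and 3.29 TPM against 1.37 and 1.08 TPM in Ctrli (log2 1.03, SE 0.36, DESeq2 adjusted p 0.0387; by edgeR 0.000135). ADAMTS15 fell in YAPi under TAM, at 0.12 and 0.13 TPM against 0.44 and 0.51 TPM (log2 -1.94, SE 0.52, adjusted p 0.0024, lost without any 1 of the 4 libraries).

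Counted by knockdown, 5 of the 10 genes were called in STAT3i under TAM beside 8.22% of all genes tested, 4 in JUNBi beside 6.9%, 4 in YAPi beside 10.7% and 2 in TAZi beside 3.42%. TIMP1 was called lower in all 4, by 1.62 in STAT3i (SE 0.11), 1.16 in JUNBi (SE 0.13), 0.54 in TAZi (SE 0.11) and 0.33 in YAPi (SE 0.10). The YAPi call (adjusted p 0.00792) was lost without any 1 library and in 5 of the 6 other settings, edgeR included, the JUNBi call by edgeR (adjusted p 0.025), and the TAZi call without the second TAZi or the second control library and in 1 fit over all groups (log2 -0.68 to -0.39). The 4 comparisons share their 2 control libraries. Under ETH, 3 genes were called in JUNBi beside 2.8%, 3 in TAZi beside 5.24%, 1 in YAPi beside 11.6% and 0 in STAT3i beside 0.189%, where 1 of the 10 (613 of all genes) had an unadjusted p under 0.05 and edgeR also called none.

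**Figure D3:**
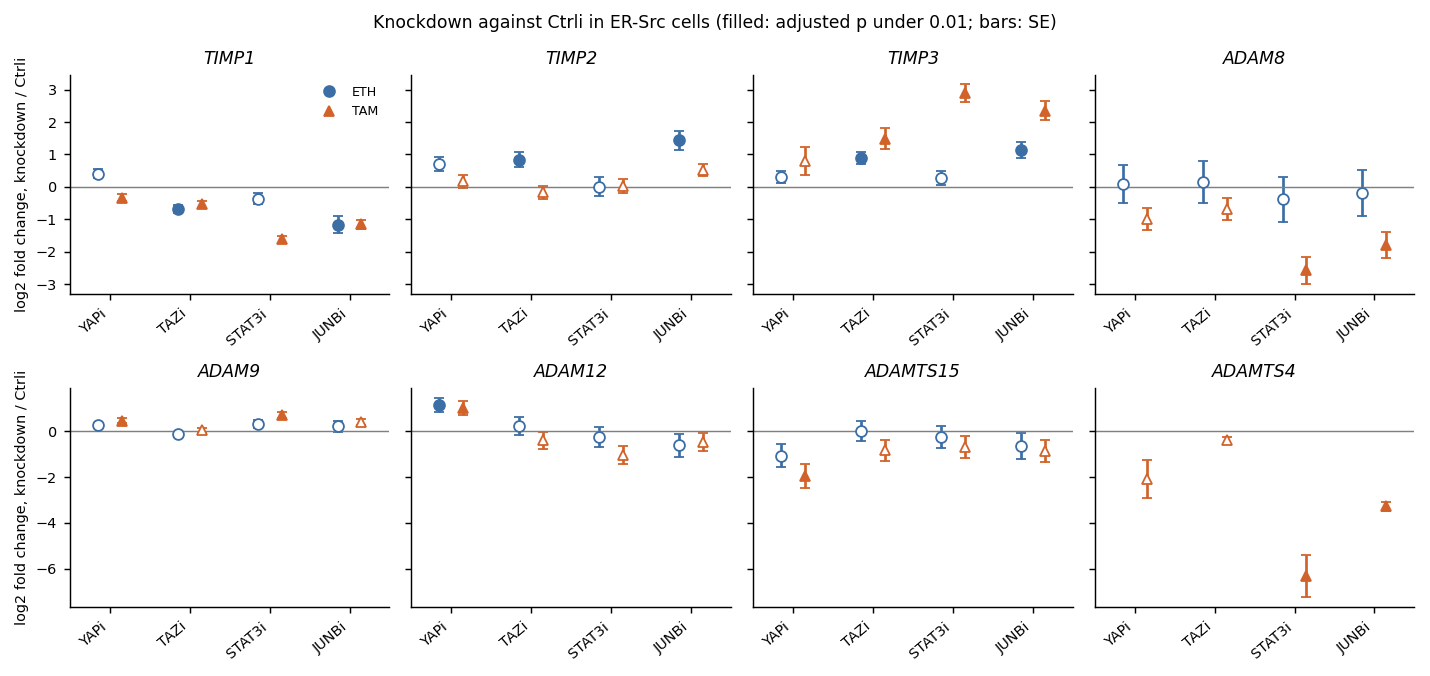
DESeq2 log2 fold change of each knockdown against Ctrli for 8 of the genes, with SE bars; circles are ETH, triangles TAM, and filled symbols are called at adjusted p under 0.01. In TAM the STAT3i and JUNBi symbols of TIMP1, ADAM8 and ADAMTS4 lie below 0 and those of TIMP3 above 0; ETH values of ADAMTS4 are left out because each group had 4 to 8 counts in all.

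TIMP1 under ETH fell in JUNBi, by 1.17 on the log2 scale (SE 0.26, DESeq2 adjusted p 0.000717), and in TAZi, by 0.68 (SE 0.12, adjusted p 1.13e-06). In STAT3i the ETH value was -0.36 (SE 0.17) and in YAPi 0.41 (SE 0.14). DESeq2 called neither, and edgeR called the YAPi value. The JUNBi call was lost without either control library (adjusted p up to 0.67) and the TAZi call without the second one (adjusted p 0.0482). With offsets from effective length both calls were lost, and in 1 fit over all groups the TAZi call (log2 up to -0.32, adjusted p up to 0.091).

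The wider families were mostly silent in ER-Src. Of the other inhibitors TIMP4 and RECK, 1 reached 1 TPM, and neither was called for TAM in Ctrli by DESeq2 or edgeR (none at an unadjusted p under 0.05). Of 16 other ADAM genes 4 reached 1 TPM in any ER-Src library, and of 16 other ADAMTS genes 3. Among those ADAM genes, ADAM15 stood at 52.97 to 125 TPM and ADAM10 at 15.8 to 41.99 TPM. Against Ctrli, DESeq2 called ADAM10 lower in YAPi in both states. It called ADAM15 lower in TAZi and JUNBi under TAM, the last lost by edgeR (adjusted p 0.103). In Ctrli, TAM against ETH called 1 of the 6 other ADAM genes with an adjusted p and 1 of the 6 other ADAMTS genes, both higher. The first was ADAM19, a sheddase of neuregulin, at 0.11 to 0.28 TPM under ETH and 2.64 to 3.52 TPM under TAM (log2 4.54, SE 0.37), and the second ADAMTS9, a versican-cleaving protease, at 0.39 to 0.50 and 3.38 to 5.70 TPM (log2 3.67, SE 0.29). ADAM19 fell against Ctrli in all 4 TAM knockdowns, with log2 values of -3.64 in STAT3i, -3.31 in YAPi, -3.23 in JUNBi and -1.54 in TAZi. ADAMTS9 fell in STAT3i by 2.48 (SE 0.25). DESeq2 called it in no other TAM knockdown, with values of -0.86 in YAPi, 0.57 in TAZi and 0.10 in JUNBi. By edgeR the YAPi and TAZi values were called (adjusted p 1.09e-09 and 2.285e-06). ADAMTSL4, a matrix protein of the ADAMTS-like group without protease activity, was the called 1 of 4 tested of that group. It rose with TAM by 1.81 (SE 0.36). It fell in STAT3i by 2.14, in YAPi by 1.51 and in JUNBi by 1.39, the last lost by edgeR (adjusted p 0.0513). In TAZi its value was -1.15, called by edgeR (adjusted p 4.41e-08) but not by DESeq2 (adjusted p 0.01545). VCAN, which encodes versican and was the called 1 of the 2 tested aggrecanase substrates, rose with TAM by 1.45 (SE 0.12) and fell in STAT3i by 0.90 (SE 0.12).

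Among 16 genes for substrates of ADAM17, 14 had an adjusted p in the TAM knockdowns. TAM against ETH in Ctrli called 1 of 14 higher and 3 lower by DESeq2 and 7 in all by edgeR. Of the knockdowns in TAM, YAPi called 6 higher and 0 lower beside 10.7% of all genes tested, TAZi 2 higher and 0 lower beside 3.42%, JUNBi 2 higher and 1 lower beside 6.9% and STAT3i 3 higher and 3 lower beside 8.22%. By edgeR, 0 were called in JUNBi and 7 in each of the other 3 knockdowns, and 7 of the 16 in JUNBi had an unadjusted p under 0.05. The EGF-receptor ligand EPGN was higher in all 4, by 2.53 in YAPi, 1.55 in STAT3i, 0.97 in TAZi and 0.69 in JUNBi, the last lost by edgeR (adjusted p 0.069), and had fallen with TAM in Ctrli by 1.18 (SE 0.18). EREG, another ligand of that receptor, rose in YAPi by 1.22 (SE 0.23) and in TAZi by 0.67 (SE 0.16). ICAM1, a shed adhesion receptor, rose with TAM in Ctrli by 1.63 (SE 0.15) and fell in STAT3i by 1.25 (SE 0.16). Of the 10 genes for partners of ADAM17 and ADAM10, DESeq2 called none for TAM in Ctrli, where 3 had an unadjusted p under 0.05 and edgeR called 3. In TAM the partners were called 2 lower in STAT3i, 3 lower in JUNBi, 1 higher in YAPi and 0 in TAZi, and by edgeR 4, 0, 2 and 1 were called. In TAZi 2 had an unadjusted p under 0.05. RHBDF2, which carries ADAM17 to the cell surface, and FURIN, which removes its prodomain, were named after their values were seen. Under TAM both were called lower in STAT3i and JUNBi, RHBDF2 with log2 values of -1.40 and -1.29 and FURIN with -0.82 and -0.84, and edgeR called neither in JUNBi (adjusted p 0.0777 and 0.0879).

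For each gene with a group mean of at least 5 TPM in ER-Src, the most similar genes were sought by Pearson's r of log2(TPM + 1) over the 10 ER-Src group means, among 8265 genes. The points share libraries and treatments, and r is a description. ADAMTS4 was most like GRAMD1B and TMPRSS4 (r = 0.993 for both) and TIMP3 most like DUSP14 and TMEM43 (r = 0.976 and 0.972). TIMP1 was most like CANT1 (r = 0.928), ADAM9 most like DEGS1 (r = 0.977), ADAM17 most like IL6ST (r = 0.969), which encodes the gp130 receptor chain, and TIMP2 most like YPEL3 (r = 0.939).

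ADAMTS4 had at most 1 count in each of the 16 MDA-MB-231 libraries, overlapping ER-Src under ETH. ADAM8, at 18.97 to 204 TPM against at most 3.03 TPM, TIMP2, at 18.5 to 187 against 2.39 to 8.21 TPM, and ADAMTS15, at 3.22 to 10.15 against 0.12 to 0.52 TPM, were higher in every MDA-MB-231 library than in any ER-Src library. The RNAs without poly(A) tails took 9.43% to 11.7% of ER-Src counts but at most 0.0112% in set 2. For set 2 and the set 1 controls, cell line and kind of library therefore cannot be told apart. The controls of the 2 sets did not match each other. TIMP3 stood at 133 and 126 TPM in set 1 Ctrli and at 10.1 and 8.79 TPM in set 2 Ctrli. ADAM17 was at 24.9 and 25.3 TPM in the first and 0.77 and 0.96 TPM in the second, while TIMP1 was at 316 and 340 TPM in the first and 953 and 1476 TPM in the second. ADAMTS1 was at 14.7 and 14.6 TPM in the first and 1.87 and 1.02 TPM in the second. No test was made between the sets.

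**Figure D4:**
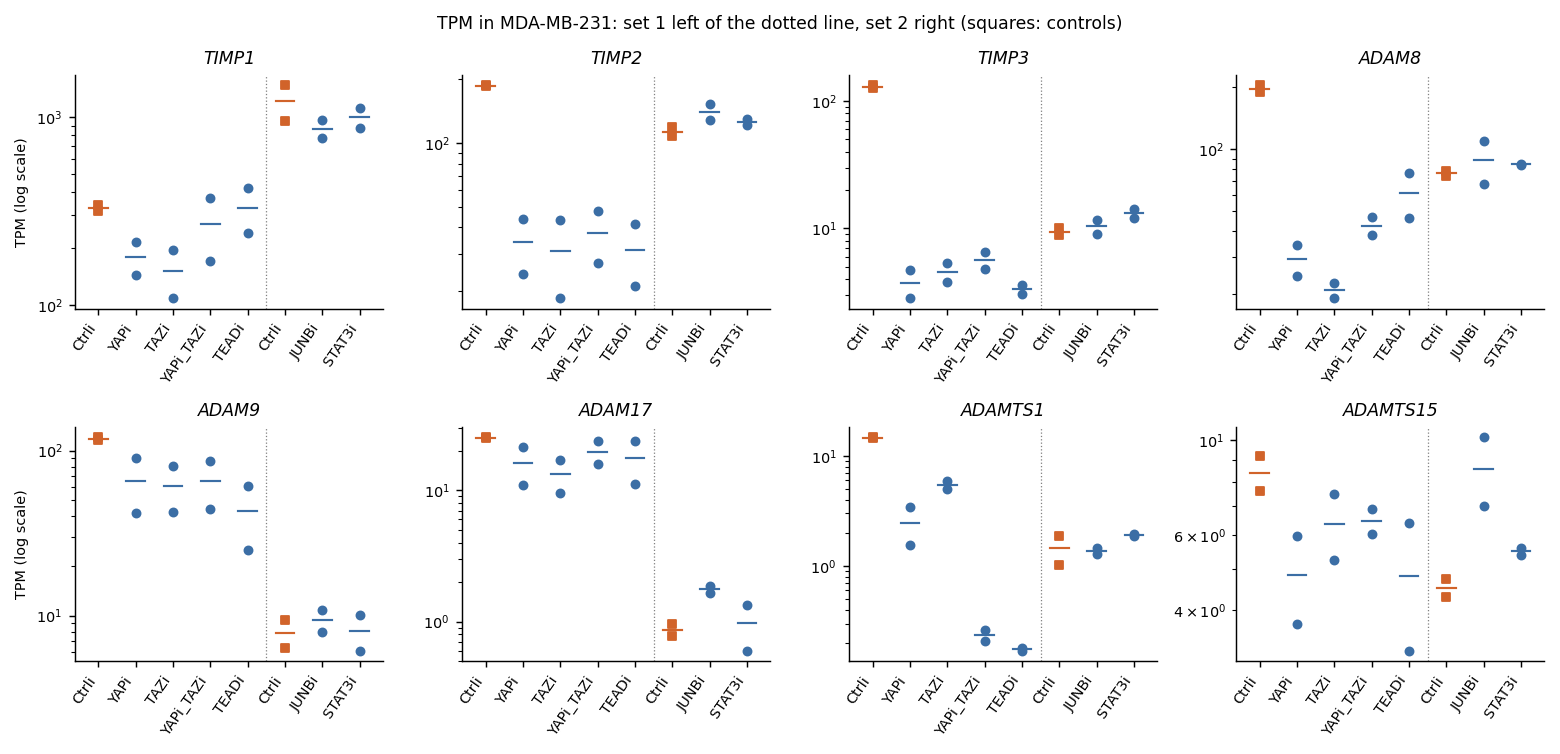
TPM on a log scale in the 16 MDA-MB-231 libraries for 8 of the genes, with squares for controls, circles for knockdowns and dashes for means of 2. In set 1, left of the dotted line, TIMP2 and TIMP3 in all 8 knockdown libraries lie below both controls, and library 2 of each knockdown lies above library 1 for every gene shown except ADAMTS1 in YAPi_TAZi.

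In set 1 the 4 knockdowns called 6 (YAPi), 8 (TAZi), 9 (YAPi_TAZi) and 6 (TEADi) of the 10 genes against Ctrli, beside 24.4%, 32.8%, 35.5% and 27.5% of all genes tested, and edgeR called 2, 4, 5 and 3. These comparisons share the 2 controls and their kind of library. TIMP3 stood at 2.82 to 6.50 TPM in the 8 knockdown libraries, and its log2 fold changes ran from -3.69 in TEADi to -3.10 in YAPi_TAZi. TIMP2 stood at 18.5 to 47.6 TPM against 187 and 185 TPM, with log2 fold changes of -1.20 to -0.92, and ADAM8 at 19.0 to 76.6 TPM against 188 and 204 TPM, with values of -1.79 to -0.26, the last, in TEADi, not called. For these 3 genes the deposited TPM gave the same sign and a larger fall. With the controls of both sets together, however, the TIMP3 call held in TEADi and the ADAM8 call in TAZi, and no other call of these 3 genes held. ADAM12, at 3 to 13 counts in each set 1 library, was called higher in TAZi, YAPi_TAZi and TEADi, and these calls were lost without any 1 library and by edgeR.

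For TIMP1, ADAM9, ADAM17 and ADAMTS15 the sign depended on the scale. ADAM17 stood at 9.60 to 23.9 TPM in the knockdowns, below both controls at 24.9 and 25.3 TPM, yet DESeq2 called it higher in all 4, with log2 fold changes of 0.55 to 1.05, against -0.91 to -0.35 by mean TPM. ADAM9 was called higher in YAPi, TAZi and YAPi_TAZi at 0.40 to 0.51, against -0.95 to -0.84 by mean TPM. The median DESeq2 log2 fold change of all genes tested was between -0.02 and 0.06. No direction against Ctrli is given for these 4 genes.

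**Figure D5:**
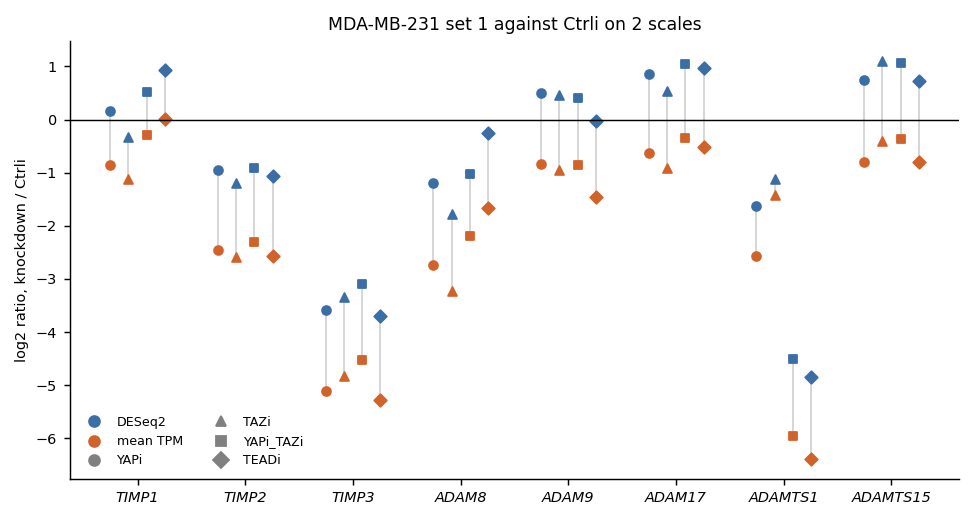
Log2 ratio of each set 1 knockdown to Ctrli for 8 genes by DESeq2 (blue) and by mean TPM (orange), with a symbol for each knockdown and a grey line joining both scales. TIMP2, TIMP3, ADAM8 and ADAMTS1 lie below 0 on both scales, and ADAM17 and ADAMTS15 lie above 0 by DESeq2 and below 0 by TPM in all 4 knockdowns.

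By mean TPM, ADAMTS1 was highest in TAZi and lowest in TEADi among the set 1 knockdowns, which were not tested pair by pair. Controls held 14.7 and 14.6 TPM, TAZi 5.00 and 5.90 TPM (36 and 60 counts), YAPi 1.54 and 3.40 TPM (35 and 28 counts), YAPi_TAZi 0.26 and 0.21 TPM (4 and 3 counts) and TEADi 0.17 and 0.18 TPM (3 and 3 counts). Scaled by size factors, the pooled counts of YAPi_TAZi were 0.0439 of those of Ctrli (exact 95% interval 0.0176 to 0.0906) and those of TEADi 0.0346 (0.0127 to 0.0754). Both calls against Ctrli, at log2 -4.51 (SE 0.56) and -4.85 (SE 0.66), held under each alternative, the controls of both sets together included. The calls in YAPi, at -1.62, and in TAZi, at -1.12, were lost with the controls of both sets together and without either control library. The YAPi call was also lost by edgeR. The TAZi call was also lost with offsets from effective length, in 1 fit over all groups and with the replicate block.

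Each set 1 knockdown was also compared with the other 3, with the replicate number as a block. First and second libraries differed in effective length, as given above. ADAMTS1 was higher in TAZi by 2.55 (SE 0.48, DESeq2 adjusted p 2.54e-06) and in YAPi by 1.83 (SE 0.49, adjusted p 0.00208) and lower in TEADi by 2.42 (SE 0.72, adjusted p 0.00688), and in YAPi_TAZi the value was -1.96 (SE 0.69, adjusted p 0.0319; called by edgeR). These comparisons share libraries, so their signs are not independent. Without the replicate block the TEADi call was lost. With a library left out, DESeq2 often gave ADAMTS1 no adjusted p; where it did, the TAZi call held in 4 of 4 fits and the YAPi and TEADi calls in 0 of 3 and 0 of 6 (adjusted p up to 0.0414). TIMP1 was lower in TAZi by 0.85 (SE 0.11) and higher in TEADi by 0.82 (SE 0.10), and ADAM8 lower in TAZi by 0.94 (SE 0.11) and higher in TEADi by 1.07 (SE 0.10), all 4 called without any 1 library. ADAM9 was lower in TEADi by 0.48 (SE 0.09), lost without the first TEADi library (adjusted p 0.0517). Called genes made up 3 of the 10 in TAZi beside 9.7% of all genes tested, 4 in TEADi beside 11.7%, 1 in YAPi beside 11.2% and 0 in YAPi_TAZi beside 10%, where 4 had an unadjusted p under 0.05 and edgeR called TIMP1 and ADAMTS1.

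In set 2 none of the 10 genes was called by DESeq2 or by edgeR, beside 3.41% of genes tested in JUNBi and 0.497% in STAT3i. DESeq2 gave an adjusted p to 6 of the 10 in JUNBi and to 3 in STAT3i, and 2 of the 10 in JUNBi and 0 in STAT3i had an unadjusted p under 0.05. The median log2 value of all genes tested in STAT3i was -0.10. TIMP1 stood at 953 and 1476 TPM in Ctrli, 962 and 769 TPM in JUNBi and 1123 and 869 TPM in STAT3i, and the groups overlapped, with log2 values of -0.70 (SE 0.24, DESeq2 adjusted p 0.0444) and -0.36 (SE 0.23). TIMP3 was at 10.1 and 8.79 TPM in Ctrli, 9.08 and 11.7 TPM in JUNBi and 14.3 and 12.2 TPM in STAT3i, where the log2 value was 0.34 (SE 0.25). ADAM8 was at 74.3 to 78.5 TPM in Ctrli and 68.1 to 109 TPM in both knockdowns together. The effects of JUNBi and STAT3i in MDA-MB-231 and in ER-Src were not tested against each other.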

How the data were processed

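The authors prepared libraries with a TruSeq Ribo Profile kit, trimmed the reads, aligned them with STAR to GENCODE version 30 transcripts (up to 20 alignments per read) and ran RSEM; the labels give hg38. They deposited RSEM expected counts, which are estimated counts per gene without normalization, and TPM, which RSEM corrected for gene length and scaled per library. Deposited lengths and effective lengths served for an alternative setting.

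Here the expected counts were rounded and fitted with DESeq2 1.42.0 in R 4.3.3, a separate run per comparison as in the study, and genes with an adjusted p under 0.01 were called. In 5 fits, YAPi_TAZi against Ctrli in set 1 and the 4 comparisons among set 1 knockdowns, DESeq2 replaced its parametric trend of the spread by a local one. Log2 fold changes are unshrunken, with SE. Alternatives were edgeR 4.0.16, TMM size factors, a mean count filter of 10, effective length offsets, 1 fit over all groups, the replicate block and leaving out each library, where a lone library is assumed to vary like the others. Ratios of mean TPM were added after the data were seen. Code was tested on simulated data. GENCODE version 44 supplied symbols for 93.1% of 60725 genes, and 746 other identifiers, at most 0.109% of counts, were left out.

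The members and gene lists were chosen with earlier results of these data known. All 10 members are named. A gene of the lists is named if called in at least 3 of the 8 ER-Src knockdown comparisons, or if among the 2 largest called changes of its list for TAM in Ctrli at a mean count of at least 100. RHBDF2, FURIN, ADAM10 and ADAM15 meet neither condition and were chosen after their values were seen. Of 2 libraries per group it is not stated whether they are separate cultures, so p-values measure the spread between these libraries. Intervals cover counting error only.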

Additional observations from a re-analysis of the deposited data

Results flagged for a closer look

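In groups of 2 libraries no single library could be tested as standing apart. Each value listed here is the log2 effect of 1 knockdown under TAM minus its effect under ETH, where that difference was called by DESeq2 (adjusted p under 0.01, interaction term over 4 groups). For TIMP1 the difference was -1.28 in STAT3i and -0.76 in YAPi. For TIMP3 it was 2.62 in STAT3i. For ADAMTS4 it was -6.09 in STAT3i and -4.08 in JUNBi, both against ETH groups with 4 to 8 counts in all.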

How the results depend on the processing

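The number of calls among the 10 genes was 13 over the 5 TAM against ETH comparisons, 15 over the knockdowns in TAM, 7 in ETH, 5 over the interactions, 29 in set 1 against Ctrli, 8 among the set 1 knockdowns and 0 in set 2. Under edgeR the counts that moved by over 1.5 times were 11 in ETH, 8 over the interactions and 14 in set 1 against Ctrli, where the controls of both sets gave 5. Without 1 library the counts ran from 9 to 12, 8 to 10, 0 to 6, 3 to 5, 15 to 27, 4 to 6 and 0 to 2 in the same order, so the calls depend on having both libraries. The replicate numbers carry no stated pairing (correlation of same-numbered deviations -0.22 to 0.64 in ER-Src); the replicate block gave 12, 10, 6, 5 and 25 calls in the first 5 families, and no replicate block gave 6 among the set 1 knockdowns, whose same-numbered libraries correlated at 0.79 to 0.82. In ER-Src the block lost the calls of TIMP2 for TAM in Ctrli and for TAZi in ETH, of TIMP1, ADAM9 and ADAMTS15 for YAPi in TAM and of ADAM12 for YAPi in both states. For set 2 no paired fit could be made, since its controls carry other numbers. Of 40 calls in ER-Src, 25 held in every alternative fit of all libraries that gave an adjusted p and 16 also without any 1 library; fits in which DESeq2 gave a gene no adjusted p are not counted as lost calls.

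With the controls of both sets TIMP1 reversed to -1.42 in YAPi_TAZi and -1.01 in TEADi. By mean TPM, set 1 values reversed for ADAM9 to -0.84 in YAPi, -0.95 in TAZi and -0.86 in YAPi_TAZi, for ADAM17 to -0.63, -0.91 and -0.35 and, in TEADi, -0.52, for ADAMTS15 to -0.40 in TAZi and -0.38 in YAPi_TAZi and for TIMP1 to -0.28 in YAPi_TAZi. The cause was not tested. Another 161 of 2921 refitted values changed sign without being called.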
